A study of Mus musculus with 4 samples.

Results

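The levels of 10 immediate early genes were followed through the differentiation of iMOP cells into neurons: the zinc finger genes Egr1, Egr2 and Egr3, the FOS family genes Fos, Fosb, Fosl1 and Fosl2, the JUN family genes Jun and Junb, and Ier2. They are 10 of the 49997 gene symbols in the count tables and were taken by symbol. iMOP cells are an immortalized mouse line of multipotent otic progenitors, that is, progenitors of the inner ear, and the labels give the genotype of every culture as wild-type. Proliferating cells grew in DMEM/F12 with B27, carbenicillin and basic FGF at 20 ng/ml, and iMOP-derived neurons grew in Neurobasal with N21, L-glutamine and the kinase inhibitor K03861 at 1 µM, so FGF, inhibitor and medium differed together and cannot be told apart. Per the labels, a ribosomal RNA depletion step came before stranded library preparation, and each group has 2 libraries, numbered 1 and 2 in the titles, which call them biological replicates. Libraries of the same number are treated here as a pair, because "set 2" stands in the title of both that are numbered 2.

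Immediate early genes are transcribed within minutes of a stimulus, without new protein synthesis, and their RNAs are short-lived. Growth factors such as FGF act on them through the ERK kinase cascade, which phosphorylates ETS-family partners of the serum response factor SRF, and through CREB. The EGR proteins bind GC-rich sites, FOS and JUN proteins pair through leucine zippers to form the AP-1 factor, and neurons induce the same genes when they are electrically active.

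The total count was between 7446361 and 14484011 per library. The 18S ribosomal RNA row took 53.3% and 59.4% of it in the replicate 1 libraries (proliferating, neurons) and 75.0% and 76.1% in the replicate 2 libraries, which leaves 2595578 to 3850766 counts per library. Marker genes did not clearly bear out the cell type labels. Of 12 tested neuron markers, 2 were higher and 1 was lower in neurons in both pairs, and the other 9 went opposite ways. Over all 12783 tested genes, 28.8% were higher and 25.5% lower in both pairs. Of 10 proliferation markers, 9 were higher in the neuron library in both pairs and 0 lower. Their summed level was 356 and 95.02 CPM in proliferating libraries 1 and 2 and 448 and 265 CPM in the neuron libraries. Of 7 tested otic neuron markers, 2 were higher and 2 lower in both pairs, and of 5 tested otic progenitor markers 1 was higher and 3 were lower. The otic progenitor markers Pax2 and Pax8 had 0 counts in every library. Proliferating replicate 1 correlated more closely with neuron replicate 1 (Pearson's r = 0.918 over 12783 genes, which are not independent replicates) than with proliferating replicate 2 (r = 0.825). In bulk RNA, fewer cells that express a gene and less RNA per cell cannot be told apart.

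The bases just before the transcription start are shown for 4 members whose levels are described below, since immediate early genes are known for short response elements in this stretch. RefSeq start regions of GRCm38.p6 (the mm10 genome that the submitters' processing notes name) were found for 6 of the 10 members: Egr2, Fos, Fosb, Fosl2, Jun and Junb. Each window holds 300 bases, 250 before and 50 after the start, and the last 150 bases before the start are printed 5′ to 3′. Capitals mark matches on either strand to TGACG (the core of a CREB site), TGACATCA (the JUN-ATF site), TATAAA (the TATA box), the AP-1 site TGANTCA, GCGNGGGCG (an EGR site) or the CArG box, the site of SRF.
Egr2 at chr10:67537719-67537868, plus strand: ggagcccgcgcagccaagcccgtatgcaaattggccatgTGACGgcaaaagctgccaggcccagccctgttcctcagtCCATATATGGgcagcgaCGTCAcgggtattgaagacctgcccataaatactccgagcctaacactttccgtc
Fos at chr12:85473740-85473889, plus strand: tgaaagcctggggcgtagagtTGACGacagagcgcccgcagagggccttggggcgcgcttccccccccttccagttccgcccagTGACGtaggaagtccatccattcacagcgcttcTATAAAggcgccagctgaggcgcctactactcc
Jun at chr4:95052223-95052372, minus strand: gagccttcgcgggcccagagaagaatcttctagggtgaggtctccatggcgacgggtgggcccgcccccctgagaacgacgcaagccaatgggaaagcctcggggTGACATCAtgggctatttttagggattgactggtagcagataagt
Junb at chr8:84978749-84978898, minus strand: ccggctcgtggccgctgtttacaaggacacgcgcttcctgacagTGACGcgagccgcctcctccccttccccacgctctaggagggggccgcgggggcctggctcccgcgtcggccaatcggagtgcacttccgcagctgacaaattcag

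The CArG box was found at position -72 of the Egr2 window, counted from the start, with a TGACG match on the plus strand at -111 and one on the minus strand at -55. The table holds other Egr2 start windows: some are shifted and hold the same matches, and one further upstream has a different CArG match at -72 and no TGACG. The Egr2 stretch lies in an intron of longer Egr2 transcripts of GENCODE release M21. Fos had TGACG at -129 and -66 and TATAAA at -33, Junb had TGACG at -106 and TATAAA at 0, the start itself, and Jun had TGACATCA at -45. Fosb, which is not printed, had TGACG at -60 and an EGR-type match at -50, and Fosl2 had an EGR-type match at -79. Over all 32851 start windows of the table, 20.8% hold TGACG, 3.62% TGACATCA, 13.6% TATAAA, 7.81% TGANTCA, 5.55% GCGNGGGCG and 1.63% a CArG box. A match is a stretch of letters, not evidence of binding, and sites outside these windows were not searched.

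The question was whether the low Egr1 level in neurons is shared by the other EGR, FOS and JUN genes in each replicate pair. It was shared in direction by 8 of the other 9 genes: Egr2, Egr3, Fos, Fosb, Fosl2, Jun, Junb and Ier2 were lower in the neuron library of both pairs. The ninth, Fosl1, was barely detected. Over all 12783 tested genes, 25.5% were lower in both pairs. Egr2, Egr3, Fos and Fosb, like Egr1, passed the filter on low counts only because they were high in the proliferating cells. The size was not shared by all: Egr1 was 49.7-fold and 40.8-fold lower in the 2 pairs, the AP-1 genes and Ier2 between 1.84-fold and 12.7-fold. Egr2 and Egr3 could not be told from Egr1 at their counts, nor could Fosb in the replicate 2 pair. Egr3 had the same fitted log2 fold change as Egr1, -5.47 (SE 1.25). Egr1 passed the test only in some fits, as given below, and the other members did not pass in the edgeR fits with the gene filter and all 4 libraries. Levels are CPM, that is, counts scaled to a common library total, with TMM factors, and the plot of levels in each library shows all 10 genes.

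**Figure D1:**
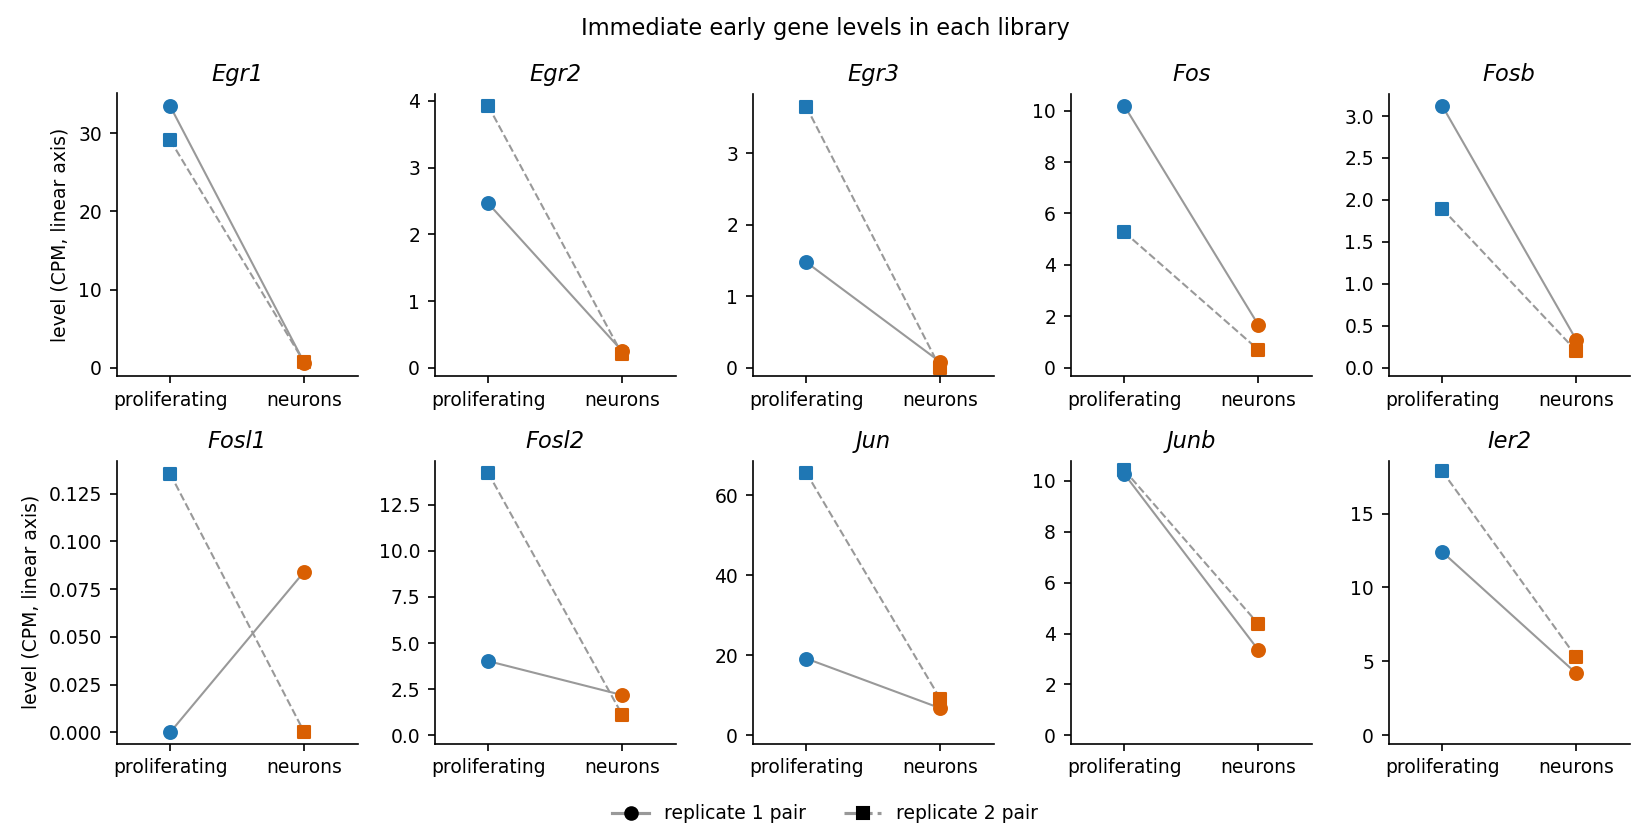
Level of each of the 10 genes in each library (vertical axis: CPM, linear, its own range per panel), proliferating cells in blue and neurons in orange, with lines joining the libraries of a replicate pair (circles and solid lines: replicate 1; squares and dashed lines: replicate 2). In 9 panels both neuron libraries lie under both proliferating libraries, as they do for 14.5% of the 12783 tested genes. Fosl1 has at most 1 count in any library.

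Egr1 encodes a zinc finger activator induced by growth factors. Its level was 33.4 and 29.1 CPM in proliferating libraries 1 and 2, and 0.673 and 0.714 CPM in neuron libraries 1 and 2. On this scale the replicates of each group were close together and the groups lay far apart. In the deposited RPKM values the replicates lay further from each other. Those values are scaled to the total count, 18S row included, and carry no TMM factor. The TMM factors were 1.64 and 0.713 in proliferating libraries 1 and 2, and 1.26 and 0.678 in neuron libraries 1 and 2. The RPKM values were 17.8 and 6.74 in proliferating libraries 1 and 2, and 0.275 and 0.157 in neuron libraries 1 and 2. In the replicate 1 pair, 407 counts against 8 gave a 49.7-fold lower level in neurons (95% counting interval 25.0 to 116). In the replicate 2 pair, 215 counts against 7 gave a 40.8-fold lower level (19.5 to 103). These intervals cover counting error only and compare 2 libraries, not the conditions. The edgeR quasi-likelihood test without a block gave a log2 fold change of -5.47 (SE 0.57, n = 2 per group) and an adjusted p-value of 0.11, where 0% of the 12783 tested genes were called lower. With the replicate number as a block, the edgeR adjusted p-value of Egr1 was 0.0111 and Egr1 fell by 5.47 on the log2 scale. That fit called 0.0235% of the tested genes lower, and Egr1 was the only member among them. It lost this call with the block and library size in place of TMM factors (edgeR adjusted p-value 0.49). Without the block and with 1 library left out, Egr1 was called each time, with edgeR adjusted p-values of 0.00488 without proliferating replicate 1, 0.000262 without proliferating replicate 2, 0.0300 without neuron replicate 1 and 0.0495 without neuron replicate 2. Those fits assume that the lone library varies like the other group.

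Egr2 and Egr3 encode related zinc finger factors, Egr2 being known from hindbrain and Schwann cell development and Egr3 from muscle spindles and activity-regulated neurons. Egr2 had 30 and 29 counts in proliferating libraries 1 and 2 and 3 and 2 counts in the neuron libraries. The proliferating levels were 2.46 and 3.93 CPM and the neuron levels 0.252 and 0.204 CPM, so the groups did not overlap. The neuron level was 9.77-fold lower in the replicate 1 pair (counting interval 3.04 to 50.02) and 19.3-fold lower in the replicate 2 pair (4.87 to 167). Egr3 had 18 and 27 counts in the proliferating libraries and 1 and 0 in the neuron libraries. That is a 17.6-fold lower level in the replicate 1 pair (2.78 to 733). In the replicate 2 pair it was at least 12.0-fold lower, taking 3 counts as the limit that a count of 0 allows. The counting intervals of Egr2 and Egr3 thus overlapped that of Egr1 in both pairs. Their edgeR adjusted p-values were 0.775 without the block, and 0.179 for Egr2 and 0.173 for Egr3 with it.

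Fos and Fosb encode AP-1 subunits that pair with JUN proteins. Fos was at 10.2 and 5.28 CPM in proliferating libraries 1 and 2 and at 1.68 and 0.714 CPM in the neuron libraries. Its counts were 124 and 39 in proliferating cells and 20 and 7 in neurons. The ratio was alike in the pairs, 6.06-fold lower in replicate 1 (counting interval 3.76 to 10.3) and 7.40-fold lower in replicate 2 (3.27 to 19.6), although both replicate 2 levels were the lower ones of their group. Fosb was low throughout, with 38 and 14 counts in proliferating cells and 4 and 2 in neurons. It was 9.28-fold lower in the replicate 1 pair (3.34 to 35.8) and 9.29-fold lower in the replicate 2 pair (2.13 to 84.3). The edgeR adjusted p-value with the block was 0.158 for Fos and 0.298 for Fosb, and without it 0.841 and 0.868.

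Fosl2, also called Fra-2, and Fosl1, also called Fra-1, are FOS proteins without the strong activation domain of Fos. Fosl2 had 49 and 105 counts in proliferating libraries 1 and 2 and 26 and 11 in the neuron libraries. Its level was 4.03 and 14.2 CPM in proliferating cells and 2.19 and 1.12 CPM in neurons, so proliferating replicate 2 stood above the other 3 libraries. In the replicate 1 pair the neuron level was 1.84-fold lower (counting interval 1.12 to 3.09), and in the replicate 2 pair 12.7-fold lower (6.80 to 26.2). These intervals do not overlap. Fosl1 had 0 and 1 count in the proliferating libraries and 1 and 0 in the neuron libraries, and no direction can be read from it at this depth.

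Jun, the main partner of FOS proteins, had the highest CPM of the members in 3 libraries and came second to Egr1 in proliferating replicate 1. Its level was 19.2 and 65.7 CPM in proliferating libraries 1 and 2 and 6.81 and 9.17 CPM in the neuron libraries. The proliferating libraries differed from each other more than proliferating replicate 1 did from the neurons, but the groups did not overlap. From 234 counts against 81, the neuron level was 2.82-fold lower in the replicate 1 pair (counting interval 2.18 to 3.68), and from 485 against 90 it was 7.16-fold lower in the replicate 2 pair (5.70 to 9.06). Those intervals do not overlap either. Without proliferating replicate 1, Jun (log2 fold change -3.07, edgeR adjusted p-value 0.0151) and Fosl2 (-3.11, 0.0486) passed the test, and without proliferating replicate 2 they did not (Jun -1.25, 0.845; Fosl2 -1.25, 0.9997). With all libraries the edgeR adjusted p-value of Jun was 0.928, or 0.214 with the block, and that of Fosl2 0.9998, or 0.531.

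Junb and Ier2 had the log2 fold changes nearest to 0 among the tested members, -1.42 (SE 0.48) and -1.67 (SE 0.50). Junb encodes a JUN protein that often acts against Jun in growth control, and Ier2 a small nuclear protein. Junb was at 10.3 and 10.4 CPM in the proliferating libraries and at 3.36 and 4.38 CPM in the neuron libraries. It was 3.05-fold lower in neurons in the replicate 1 pair (counting interval 2.12 to 4.47) and 2.38-fold lower in the replicate 2 pair (1.62 to 3.54). Ier2 was at 12.4 and 17.9 CPM in the proliferating libraries and at 4.21 and 5.30 CPM in the neuron libraries. It was 2.95-fold lower (2.13 to 4.15) and 3.37-fold lower (2.43 to 4.74) in the 2 pairs. The edgeR adjusted p-value was 0.9998 for both genes without the block, and 0.564 for Junb and 0.384 for Ier2 with it.

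**Figure D2:**
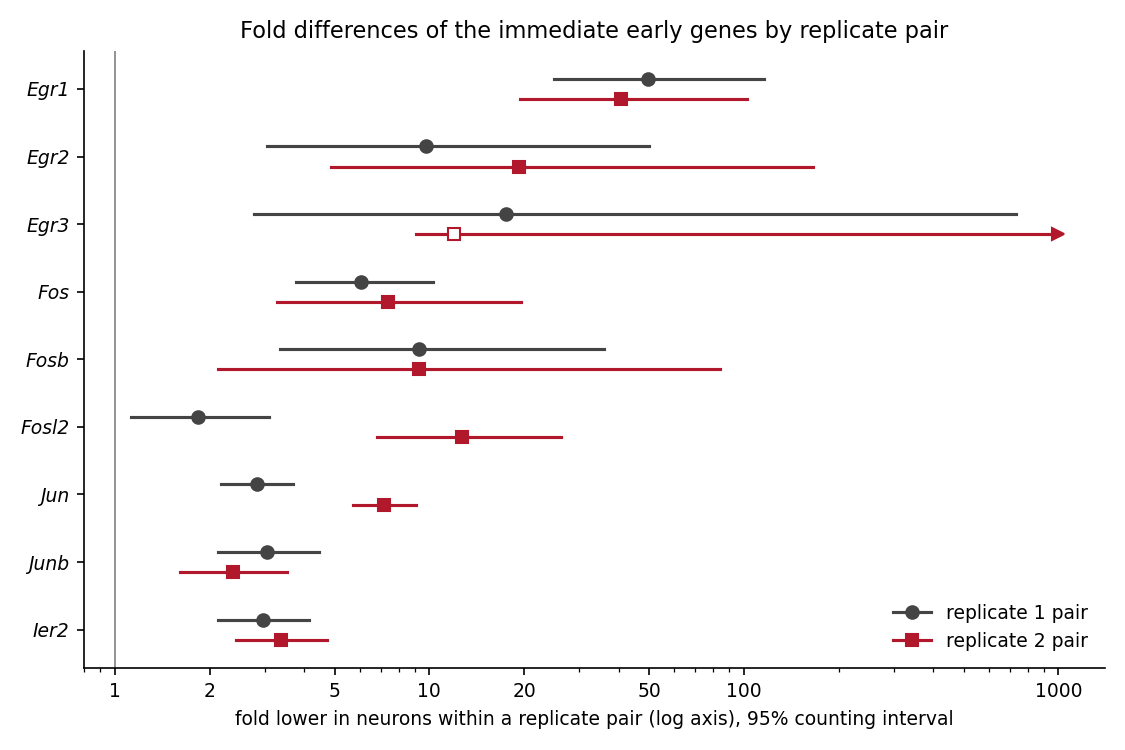
Fold by which each gene was lower in neurons (horizontal log axis) in the replicate 1 pair (dark circles) and the replicate 2 pair (red squares), with 95% counting intervals; the open square is the bound for Egr3 with 0 neuron counts, and its interval has no upper end. Egr1 lies at 49.7 and 40.8, Junb at 3.05 and 2.38, and the intervals of the pairs separate for Fosl2 and Jun.

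The difference in size between Egr1 and the other members does not depend on the scaling when it is taken within libraries. Per 100 Egr1 counts, proliferating libraries 1 and 2 had 57.5 and 226 Jun counts, and the neuron libraries had 1013 and 1286. The Jun to Egr1 ratio was thus 17.6 times higher in neurons in the replicate 1 pair (95% counting interval 8.30 to 42.8) and 5.70 times higher in the replicate 2 pair (2.59 to 14.8). For Junb this factor was 16.3 (7.23 to 41.1) and 17.2 (7.18 to 46.7), and for Ier2 16.8 (7.65 to 41.9) and 12.1 (5.24 to 32.3). For Fos it was 8.21 (3.35 to 22.0) and 5.51 (1.54 to 19.4). For Fosl2 it was 27.0 (10.98 to 72.0) and 3.22 (1.10 to 10.1). Fos, Fosl2, Jun, Junb and Ier2 were therefore less reduced than Egr1 in both pairs, beyond counting error. For Egr2 the factor was 5.09 (0.822 to 22.5) and 2.12 (0.205 to 11.8), so its difference from Egr1 was not detectable at these counts. For Egr3 it was 2.83 (0.0604 to 23.0) and 0 (0 to 5.85), which likewise leaves no detectable difference. For Fosb it was 5.36 (1.12 to 21.0) in the replicate 1 pair, beyond counting error, and 4.39 (0.404 to 25.9) in the replicate 2 pair, where it was not. No interval here includes the spread between cultures. The comparison starts from Egr1, which was picked with its low level in these neurons known, so it is a description and not a test.

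The make-up of the 10 genes' counts shifted, though not every share moved alike in both pairs. Egr1 held 34.6% of them (95% Wilson interval 31.9% to 37.4%) in the first proliferating library and 19.1% (16.9% to 21.5%) in the other. In the neurons it held 3.42% (1.74% to 6.60%) and 3.27% (1.59% to 6.60%). Jun and Junb together held 30.5% and 50% in the proliferating libraries and 51.7% and 62.1% in the neuron libraries. Ier2 went from 12.8% and 11.7% to 21.4% and 24.3%. The summed level of the 10 genes was 96.6 and 152 CPM in proliferating libraries 1 and 2 and 19.7 and 21.8 CPM in the neuron libraries.

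**Figure D3:**
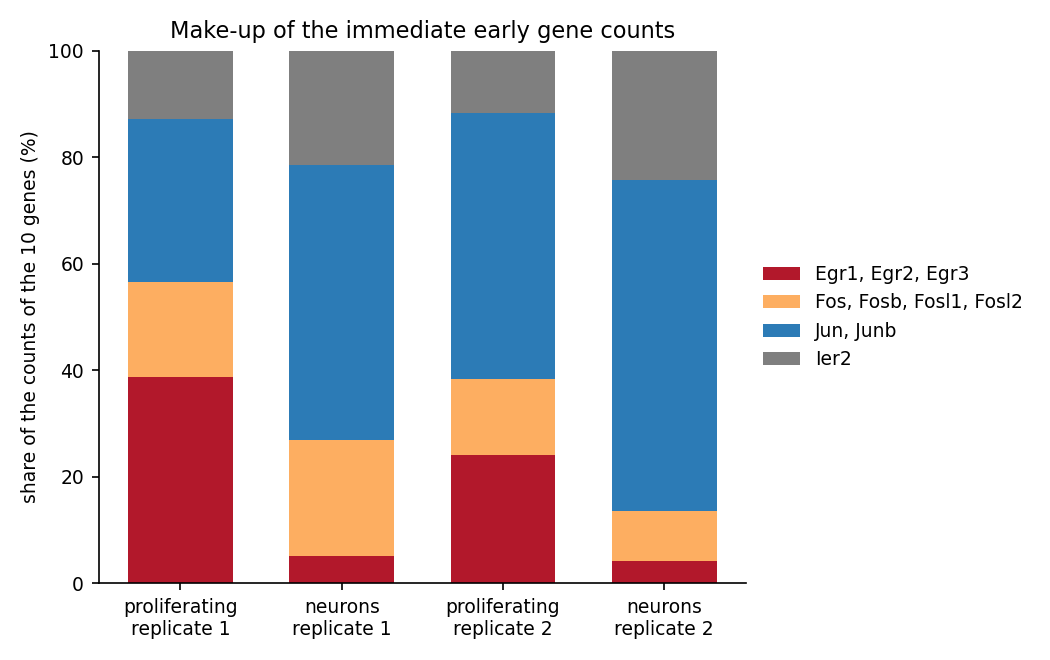
Share of each family in the summed counts of the 10 genes (vertical axis, percent) in each library, ordered by replicate pair. The EGR share is 38.7% and 24.1% in proliferating libraries 1 and 2 and 5.13% and 4.21% in the neuron libraries.

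Levels of different genes were compared per kilobase of the longest GENCODE transcript. On that scale (CPM per kilobase) the neuron libraries had Ier2 highest, at 2.76 and 3.48, then Jun at 2.14 and 2.88 and Junb at 1.86 and 2.42. The ranges of these neighbours overlap. Fos followed at 0.798 and 0.339, Fosl2 at 0.335 and 0.172 and Egr1 at 0.150 and 0.159, and the others were lower. In proliferating libraries 1 and 2, Jun was at 6.03 and 20.6, Ier2 at 8.15 and 11.7, Egr1 at 7.46 and 6.49, Junb at 5.68 and 5.76 and Fos at 4.83 and 2.50 CPM per kilobase. The range of Jun covers those of Ier2 and Egr1. Egr1 thus stood among the 3 highest members in both proliferating libraries and in sixth place in both neuron libraries. With the authors' deposited RPKM values Egr1 came first in proliferating replicate 1, at 17.8 against 13.3 for Ier2. The length behind the deposited RPKM is 44168 bases for Egr2, against 2965 bases for its longest GENCODE transcript, 11852 against 3940 bases for Egr3 and 11153 against 3782 bases for Fosb, so the RPKM values of these 3 genes are not comparable with those of the other members.

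Of the 10 members, 9 passed the filter on low counts, and 5 of these (Egr1, Egr2, Egr3, Fos and Fosb) had at least 10 counts in both proliferating libraries but not in both neuron libraries, so they could pass only because they were high in the proliferating cells. Jun, Junb, Ier2 and Fosl2 had at least 10 counts in all 4 libraries. These 4 were lower in both pairs, as were 27.8% of the 9979 tested genes with such counts. Jun, Junb and Ier2 were at least 2-fold lower in both pairs, as were 1.47% of those genes. Among all 12783 tested genes, 25.5% were lower in both pairs, 14.5% had both neuron libraries under both proliferating libraries and 2.43% were at least 2-fold lower in both pairs, against 9, 9 and 8 of the 10 members. Of the 10 members, 8 were at least 2-fold lower in the replicate 1 pair, as were 9 in the replicate 2 pair, against 7.77% and 10.7% of the tested genes. Among the 10506 tested genes with at least 10 counts in both proliferating libraries, which is how 5 members passed, 29.9% were lower in both pairs, 2.88% at least 2-fold lower in both and 17.4% had separate groups. These counts describe the members and are no test of them. In the edgeR fit without the block, the unadjusted p-values of the 9 tested members lay between 1.89e-05 (Egr1) and 0.0202 (Junb). In that fit 2.51% of the tested genes were lower at an unadjusted p-value under 0.05. The median log2 fold change of the tested members was -2.67, against 0.024 over the tested genes. That median includes Egr1, Egr2, Egr3, Fos and Fosb, which passed only through the proliferating cells. The members with at least 10 counts in all 4 libraries had -2.43 (Fosl2), -2.41 (Jun), -1.67 (Ier2) and -1.42 (Junb). By pair the medians of the tested members were -2.47 in replicate 1 and -2.81 in replicate 2. The genes were chosen with earlier results on Egr1 in view, so Egr1 itself adds no support to these counts, p-values or medians.

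**Figure D4:**
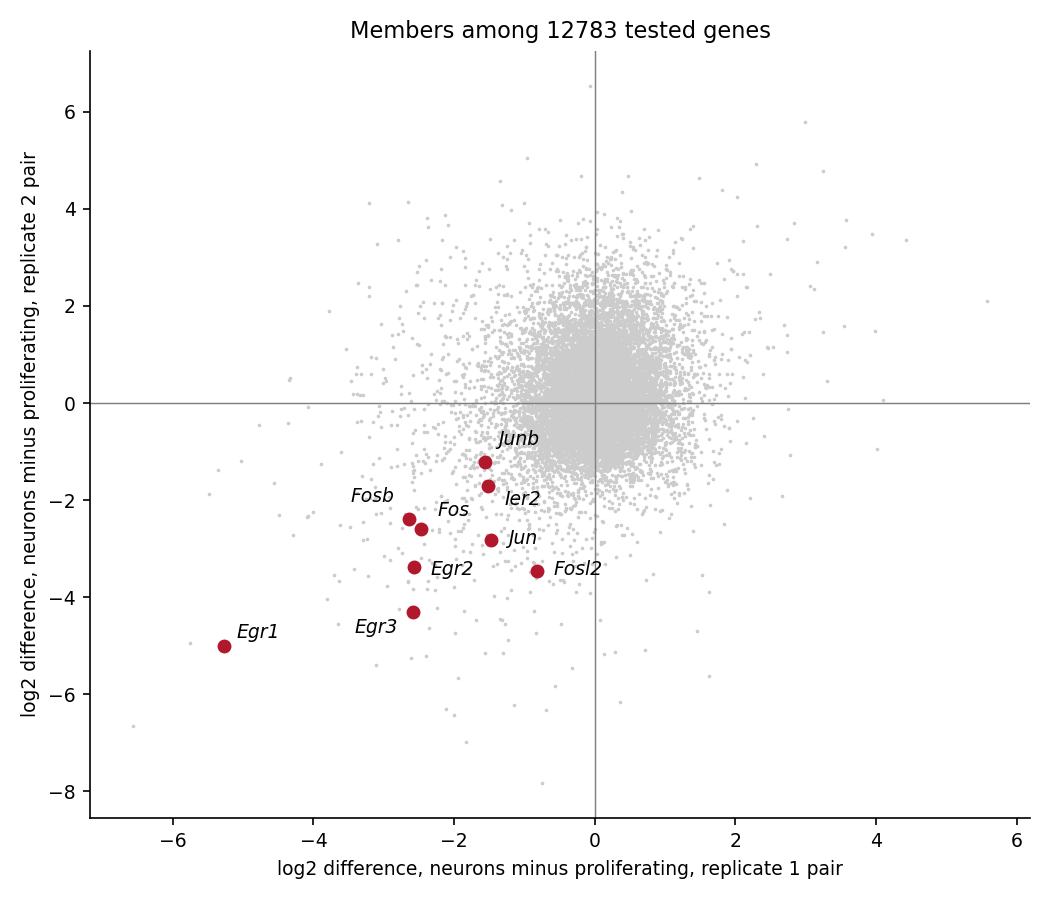
Log2 difference between neurons and proliferating cells (log2 CPM, prior count 2) in the replicate 1 pair (horizontal axis) and the replicate 2 pair (vertical axis) for the 12783 tested genes in grey and the 9 tested members in red. All 9 lie in the lower left part of the plot, with Egr1 at -5.28 and -5.01 and Fosl2 nearest to the vertical zero line at -0.83.

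On the plot of both pairs, Egr1 was at place 5 from the lowest in the replicate 1 pair, but at place 21 in the replicate 2 pair. The 5 tested genes with the profile closest to Egr1 (Euclidean distance of centred log2 CPM over 4 libraries) were Gfap (distance 0.39), Slc6a11 (1.48), Calb2 (1.56), Trim9 (1.59) and Hepacam (1.61). Gfap is the intermediate filament of astrocytes, Slc6a11 a GABA transporter of glia, Calb2 the calcium-binding protein calretinin, Trim9 a neuronal ubiquitin ligase and Hepacam a glial adhesion protein. Gfap had 181 and 89 counts in proliferating libraries 1 and 2 and 1 and 2 in the neuron libraries, and Trim9 had 104 and 173 counts against 6 and 8. Gfap and Slc6a11 were the other genes called lower in the blocked edgeR fit, with adjusted p-values of 0.0158 and 0.0111. Among the members, the closest to Egr1 were Egr3, at place 11 of the tested genes (distance 2.01), and Egr2, at place 20 (2.26), and the farthest was Junb, at place 272 (3.77). Neuron counts were low for Slc6a11 (0 and 0), Calb2 (2 and 1), Hepacam (3 and 0), Egr3 (1 and 0) and Egr2 (3 and 2). The prior count of 2 thus weighs on their distances.

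Glia markers were mostly lower in neurons, but not evenly. Of 12 such genes 6 were tested, of which 5 were lower in neurons in both pairs and 1 went opposite ways. Only 2, Gfap and Olig2, were at least 2-fold lower in both pairs. Over all tested genes, 25.5% were lower in both pairs and 2.43% at least 2-fold lower in both. The summed level of the 12 was 171 and 182 CPM in proliferating libraries 1 and 2 and 74.4 and 26.1 CPM in the neuron libraries. Sox10 and Mbp had at most 2 counts in any library. Whether the cultures held glia, and what part such cells had in the immediate early gene levels, was not tested. Macrophage markers summed to between 0.714 and 1.43 CPM with Ptprc at 0 counts throughout, endothelium markers to at most 1.22 CPM, mesenchyme markers to between 7.95 and 17.9 CPM and hair cell markers to between 4.96 and 24.6 CPM.

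Relatives of the members outside the 10 were less uniform. Among 14 other EGR and AP-1 family genes and cofactors, 10 were tested, 7 were lower in both pairs, 0 were higher in both and 3 went opposite ways, with 0 called. Their median log2 fold change was -0.65. Over all tested genes, 25.5% were lower and 28.8% higher in both pairs. Maff, a small MAF protein that can pair with FOS, had 34 and 42 counts in proliferating libraries 1 and 2 and 16 and 9 in the neuron libraries (log2 fold change -1.88, SE 0.66, edgeR adjusted p-value 0.9998). Egr4, the fourth EGR gene, had 12 and 11 counts in the proliferating libraries and 5 and 1 in the neuron libraries. Atf3, a stress-induced partner of JUN, had 15 counts against 14 in the replicate 1 pair but 22 against 2 in the replicate 2 pair, so its low level in neurons rested on replicate 2.

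Among 30 other immediate early genes, 24 were tested, 14 were lower in both pairs, 1 was higher in both and 9 went opposite ways, with a median of -0.77 and 0 called. The shares over all tested genes were 25.5% lower and 28.8% higher in both pairs. Ccn1, a secreted matrix protein induced by serum, had counts of 198 and 123 in proliferating libraries 1 and 2 and 32 and 27 in the neuron libraries. The log2 differences of Ccn1 were -2.51 and -2.52 in the pairs and its edgeR adjusted p-value was 0.769, or 0.158 with the block. Klf10, a TGF-beta-induced repressor, had 143 and 259 counts in the proliferating libraries and 56 in each neuron replicate. Plk2, a kinase of the polo family, differed little in the replicate 1 pair, with 30 counts against 19, and widely in the replicate 2 pair, with 338 against 6. Sgk1, a kinase induced by serum and glucocorticoids, had 25 and 142 counts in the proliferating libraries and 7 and 23 in the neuron libraries.

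Of 9 genes known for induction by neuronal activity, 2 passed the filter. Vgf, a neuropeptide precursor, went from 28 counts to 6 between proliferating cells and neurons in the replicate 1 pair, and from 1223 to 11 in the other pair. Homer1, a synaptic scaffold protein, had 175 and 37 counts in the proliferating libraries and 200 and 88 in the neuron libraries. Neither passed the edgeR test (adjusted p-values 0.868 for Vgf and 0.9998 for Homer1).

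The genes of the signalling route to the members did not move in one direction. All 22 genes of the ERK, JNK and p38 kinases, of the kinases between ERK and CREB, and of the SRF, TCF and CREB factors were tested. In both pairs 4 were lower and 7 higher, and 11 went opposite ways, with a median log2 fold change of 0.076 and 0 called. Over all tested genes, 25.5% were lower and 28.8% higher in both pairs, so this list lay near the genes at large. These are RNA levels, and the activity of the encoded proteins was not measured. Rps6ka4, which encodes the kinase MSK2, had 44 and 47 counts in the proliferating libraries and 10 and 29 in the neuron libraries. Its log2 fold change was -1.39 (SE 0.73). It was the only gene of this list at least 2-fold lower in both pairs, as were 2.43% of all tested genes. Rps6ka5, which encodes the related MSK1, had 71 and 29 counts against 122 and 85 (0.95, SE 0.49). Map2k1, which encodes the ERK kinase MEK1, had 147 and 92 counts in the proliferating libraries and 91 and 61 in the neuron libraries (log2 fold change -0.82, SE 0.47). Creb1 had 379 and 62 counts in the proliferating libraries and 518 and 317 in the neuron libraries (0.93, SE 0.65). The edgeR adjusted p-value was 0.9998 for each of these 4 genes. Srf, chosen after its values were seen because its protein binds the CArG box, had 113 and 98 counts in the proliferating libraries and 92 and 91 in the neuron libraries.

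The list of ERK feedback genes holds FGF-induced genes whose products dampen the cascade, and also the ETS factor genes Etv1, Etv4 and Etv5. Its genes differed in pattern between the pairs. Of 12 genes 11 were tested, 7 were lower in both pairs and 0 were higher in both, with 0 called. The shares over all tested genes were 25.5% lower and 28.8% higher in both pairs. By pair the median log2 difference of the ERK feedback genes was -0.70 (replicate 1) against -3.78 (replicate 2), beside -2.47 and -2.81 for the tested members. Spry4 had 43 counts against 24 in the replicate 1 pair but 324 against 0 in the replicate 2 pair. The difference between the pairs has 1 library per group behind it. Whether the pairs differed more in the ERK feedback genes than in the members cannot be tested with 1 library per group in a pair. Of 10 heat shock genes, 7 were tested, 0 were lower and 4 were higher in both pairs. Their median was 0.24, with 0 called, and the same shares over all tested genes apply.

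**Figure D5:**
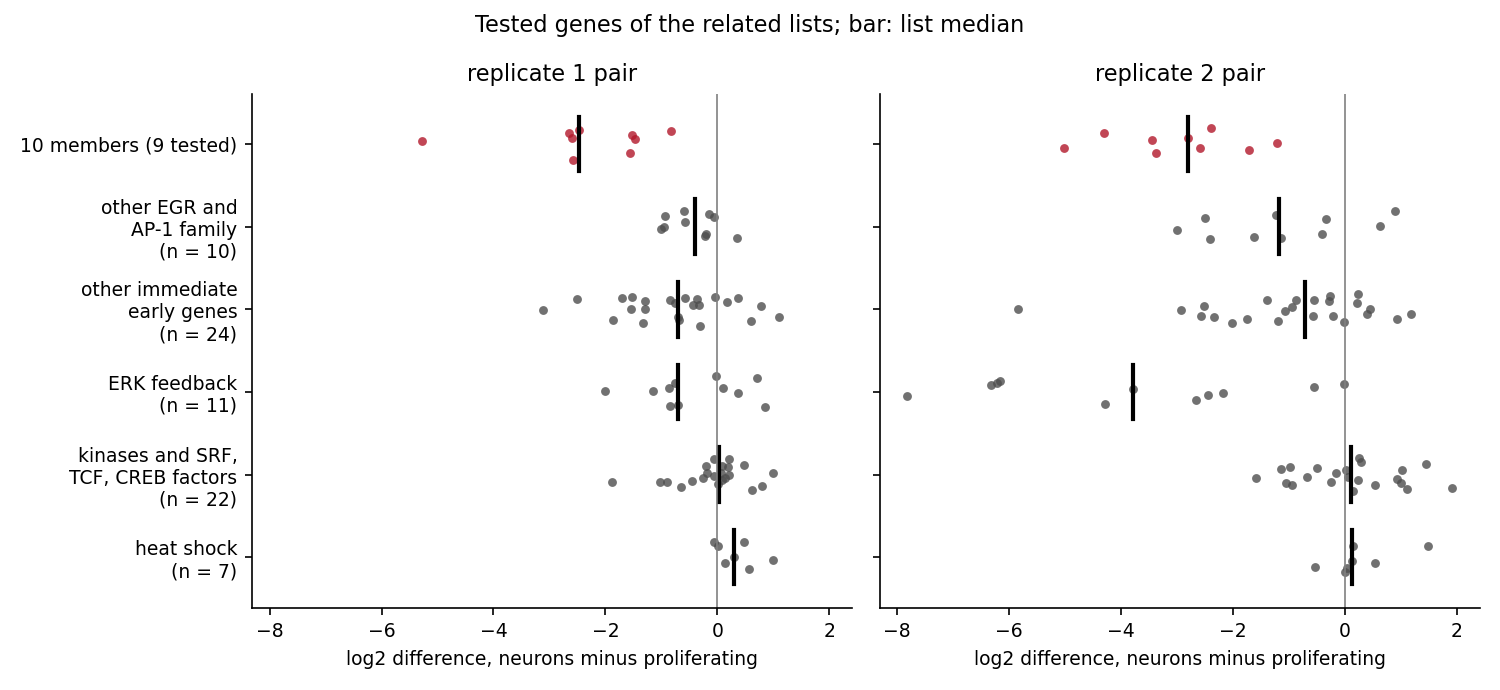
Log2 difference between neurons and proliferating cells in the replicate 1 pair (left) and the replicate 2 pair (right) for the tested genes of 6 lists, with a bar at each list median. The medians of the members are -2.47 and -2.81, those of the ERK feedback genes -0.70 and -3.78, and those of the kinases and the SRF, TCF and CREB factors 0.037 and 0.103.

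Overlapping genes limit the counts of 3 members, since the use of strand in counting is not stated. In GENCODE, Jun overlaps the antisense gene Junos, which had 13 and 5 counts in the proliferating libraries and 14 and 4 in the neuron libraries, far under those of Jun. Junb overlaps Prdx2, a peroxidase gene on the other strand, at the end of 1 processed transcript. Prdx2 had 155 and 261 counts in the proliferating libraries and 246 and 276 in the neuron libraries. Fosl1 overlaps Ccdc85b, with 50 to 102 counts per library.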

How the data were processed

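The authors deposited raw counts per gene symbol and RPKM values for each of 4 libraries, 2 per group. The submitters' processing notes name HISAT2, SAMtools, featureCounts, DESeq2 and deepTools 3.4.3 and the build mm10, without roles. The use of strand and of reads with several matches is not given in the sources used here. Groups and replicate numbers come from the titles. Same-numbered libraries were taken as pairs because both replicate 2 titles say set 2, and their deviations from the group means correlated across genes (r = 0.33).

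Counts were tested with edgeR 4.0.16 in R 4.3.3 (TMM, filterByExpr with minimum count 10 and minimum total 15, estimateDisp, glmQLFit with legacy = TRUE, glmQLFTest) on all 4 libraries, with group as the term. Calls have a Benjamini-Hochberg adjusted p-value under 0.05 over 12783 genes, two-sided. SE is the log2 fold change over the square root of F. An exact permutation test of 2 libraries against 2 cannot give p under 0.333, so none was run. Pair folds have exact conditional 95% intervals on the counts, which are reads without molecular identifiers, so intervals cover counting error only. Log2 differences within a pair use a prior count of 2.

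The alternatives were the replicate block, RLE factors, library size, leaving out the 18S row, other filters, DESeq2 1.42.0, legacy = FALSE, limma 3.58.1 on log2(RPKM + 1) and log2(RPKM + 0.1) and leaving out each library. Fits combining the block with another choice were added after seeing the data. The edgeR fits were also run on simulated counts with planted changes. That run checks the code, not the power or error rate in these data, and no result here rests on it. Members and lists (7 of genes, 9 of markers) were chosen with earlier results of these data known. Named genes are all members, in each list up to 4 with the largest log2 fold change among those moving alike in both pairs, and the 5 genes nearest to Egr1. Start windows come from the RefSeq table of GRCm38.p6.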

Additional observations from a re-analysis of the deposited data

How the results depend on the processing

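All 9 tested members had a negative log2 fold change in each of the 21 fits run, and 9 of the 10 were lower in both pairs with RLE factors, with library size, without the 18S row, with a prior count of 0.5 and with log2(RPKM + 0.1). Without the block 0 genes were called in either direction, with 321 lower and 117 higher at an unadjusted p-value under 0.05. The genes called lower numbered 2 with library size in place of TMM factors (median of all genes -0.27), 122 without a gene filter, 48 with DESeq2, 1 with log2(RPKM + 1), 2 with log2(RPKM + 0.1) and 3 with the replicate block. Those called higher numbered 41 without a gene filter and 12 with DESeq2. Leaving out each library gave 11 to 84 lower and 3 to 29 higher. Among the combined fits, the replicate block called 19 lower and 4 higher with RLE factors, 3 lower without the 18S row, 144 lower and 48 higher without a gene filter, 48 lower and 15 higher with DESeq2 and 3 lower with legacy = FALSE. With library size it called 0 (547 lower and 98 higher unadjusted). Egr1 was called in 14 of the 21 fits, with adjusted p-values from 6.11e-14 to 0.491. Without a gene filter, with or without the replicate block, Egr1, Egr2, Egr3, Fos and Jun were called, and the block with DESeq2 called Egr1 and Jun. Added to the edgeR fit, the replicate block changed no call of a member other than Egr1. The median log2 fold change of the tested members was -2.99 with library size, -2.95 with library size and the replicate block, -1.28 with log2(RPKM + 1), -1.85 with log2(RPKM + 0.1), and -3.45 to -2.64 with 1 library left out. The cause of these differences was not tested. Counts of 0 to 8 in neurons limit the folds of the EGR genes and Fosb, and Fosl1 was too low to give any. Fos, with 7 counts in neuron replicate 2, is limited in the same way in that pair.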
